A study of Homo sapiens with 8 samples.

Results

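The 50 genes described here are protein-coding genes whose read counts were higher in non-side population (NSP) than in side population (SP) cells of the bladder cancer line J82, an established human line. Counts were scaled to CPM, the count divided by the library total and multiplied by 1000000. A gene entered the set if it had at least 100 counts over the 8 libraries, if its lowest NSP CPM lay above its highest SP CPM, and if its mean NSP CPM was at least 2 times its mean SP CPM. Of 57820 genes in the table, 19404 were protein-coding and 6860 of these had at least 100 counts. The rule picked 55 of the 6860 (0.802%), and 5 of them (LTO1, CCND1, ITGB1BP1, GAS6 and MME) were left out by name, which left 50 genes (0.729%). The SP and NSP values chose the genes, so the differences between SP and NSP below describe the set and are not tests of it.

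The study sorted SP and NSP cells from J82 cultures in DMEM with 10% FBS, with no genetic change and no drug, and compared their mRNA. SP cells keep little of the DNA dye Hoechst, since transporters of the ABC family pump it out, and NSP cells are those that keep it. There were 4 SP and 4 NSP libraries, numbered 1 to 4 in each group. The labels do not say whether the numbers stand for separate cultures or sorts, so a p-value measures the spread between these libraries, which may be technical.

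Library totals were 1431823 to 1697218 counts in SP and 1489033 to 2073526 in NSP, and NSP replicates 1 and 2 were the deepest. The mitochondrial chromosome held 3.46 to 7.57% of the counts in SP and 1.65 to 4.01% in NSP, and its part in the levels below was not tested. ABCB1, a drug pump that exports Hoechst, averaged 30.2 CPM in SP and 3.89 CPM in NSP. ABCG2, the other dye efflux gene checked, had only 14 counts in all and averaged 1.78 CPM in SP and 0.43 CPM in NSP. Counts under keratin genes were found in every library (KRT8 at 4166 to 7986 counts), as were counts under the mesenchymal filament gene VIM (272 to 1402 counts). The epithelial genes EPCAM and CDH1 had at most 1 and 4 counts in a library, and the urothelial plaque gene UPK3A had none in any of the 8, whereas UPK2 had 253 counts over all of them. Among leukocyte genes PTPRC and CD3E had no count, and CD14 had 19 to 118 counts per library. In sorted bulk RNA, fewer cells that express a gene and less RNA per cell cannot be told apart.

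Which strand the counts stand for is in doubt for all 50 genes and for the marker genes above. The library kit keeps strand, and the strand setting of the counting is not named in the sources used here. There were 595 pairs in which 50% or more of a lncRNA's exon bases lay opposite the exons of a protein-coding gene and the pair had 100 counts or more. Counts per kb were higher under the lncRNA in 525 of these pairs (88.2%). EEF1A1, a translation factor that is among the most abundant mRNAs of most cells and was picked here after its values were seen, averaged 64.2 CPM in SP and 69.3 CPM in NSP, and the library totals are well below the raw reads per sample that the methods state. A count listed under a gene may therefore hold reads from the strand opposite to it, also where no gene is annotated there, and values listed under a gene and its opposite-strand partner may be swapped. Above and below, a level, a difference or a lack of counts is that of the counts listed under the gene's name. Whether it is that of the gene's own RNA was not tested.

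By the family lists, the set holds 5 matrix genes, 5 surface adhesion genes, 5 chromatin and cell cycle genes, 4 keratin and desmosome genes, 4 actin-binding genes and smaller groups. Matrix glycoproteins and collagens form the scaffold outside the cell, and transmembrane receptors such as CD44 and the integrins hold the cell to it. Inside the cell, keratin filaments and actin bundles carry mechanical load, and caveolae fold the membrane. SP cells of tumour lines are known for drug efflux, and the sort itself is on dye efflux and on nothing in these groups.

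The mean NSP to SP ratio of the 50 genes ran from 2.01 (PTPRF) to 4.98 (MISP) with a median of 2.46, while the median ratio of the 6860 genes was 0.934. It was at least 3 in 11 genes and under 2.5 in 28. The genes had 104 to 6229 counts in all, with a median of 446.5 against 344 for the 6860 genes. Under 200 counts lay behind 11 genes, and 12 genes had an SP library with at most 5 counts, so the smaller SP levels rest on few reads. Together the genes held 0.303 to 0.428% of the counts of an NSP library and 0.125 to 0.168% of an SP library. Per kb of exon, the counts over 8 libraries ran from 11.9 (ESPL1, the separase that cuts cohesin) to 1589.6 (HMGA1, an architectural chromatin protein).

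**Figure D1:**
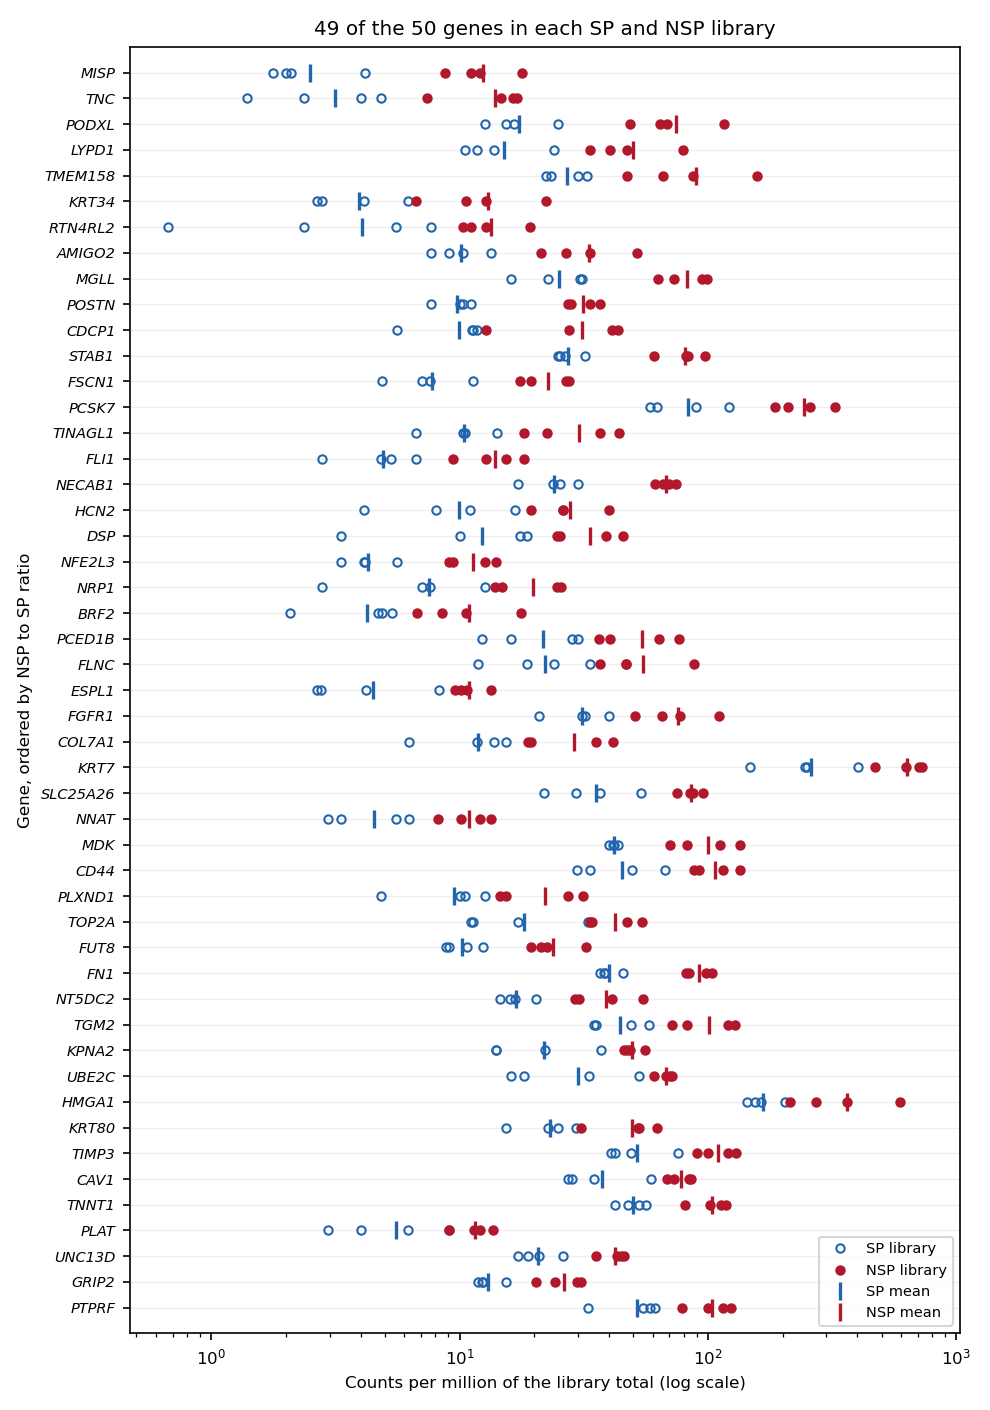
CPM of 49 of the 50 genes in each library on a log axis, with open blue circles for the 4 SP libraries, filled red circles for the 4 NSP libraries and a vertical tick for each group mean. The genes run from a ratio of 4.98 at the top to 2.01 at the bottom, and by the rule no NSP circle lies left of an SP circle of the same gene.

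**Figure D2:**
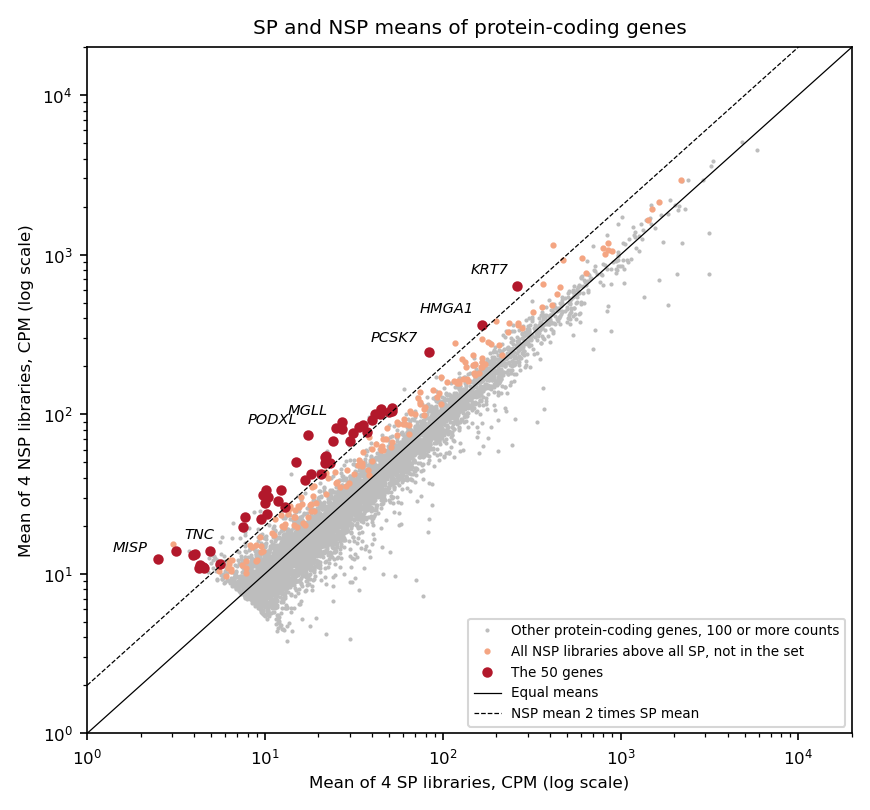
Mean NSP CPM against mean SP CPM of the 6860 protein-coding genes with at least 100 counts, both on log axes, with red points for the 50 genes, orange points for the other genes whose NSP libraries all lay above all SP libraries, and grey points for the rest. The red points lie on or above the dashed line where the NSP mean is 2 times the SP mean, over the whole range of SP means from 2.504 CPM (MISP) to 261 CPM (KRT7).

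Non-overlap alone was met in the NSP direction by 215 of the 6860 genes (3.13%), and 160 of these had a ratio under 2. A ratio of at least 2 was met by 94 genes (1.37%), of which 39 had overlapping libraries. In the other direction 462 genes (6.73%) had all SP above all NSP libraries, and the mirrored rule picked 92. The genes next to the thresholds differed little from those inside. At the ratio threshold, PTPRF (2.01), GRIP2 (2.02) and UNC13D (2.03) were in, and DCBLD2 (1.999), NSMCE4A (1.98) and P4HA3 (1.95) were out. By counts, NNAT (104), ESPL1 (106) and MISP (107) were in, and TNNC1 (96), IL13RA1 (95) and PLEKHO1 (94) were out. By the lowest NSP over the highest SP level, PLAT (1.002), TOP2A (1.01) and KRT80 (1.05) were in, and PMEPA1 (0.981), SLC12A8 (0.969) and FBLN1 (0.951) were out. A further 103 protein-coding genes met the rest of the rule with under 100 counts.

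All 50 genes were among the 9309 tested by edgeR's quasi-likelihood test, which called 2.03% of all genes tested higher in NSP (fold change over 1.3, adjusted p-value under 0.05 by Benjamini-Hochberg). Of the 50, 47 were called, and BRF2, ESPL1 and PLAT were not. Nothing is read from this count, since the rule used the same contrast. Without NSP replicate 2 the count was 31. The fitted log2 fold changes ran from 1.06 to 2.37 with a median of 1.36, and the median over all genes tested was -0.01. Calls by gene family below include genes of the set. The family lists were also written with earlier results of these data known, so these counts are a description.

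The 4 genes that named the set differ in what they do. PODXL (podocalyxin, chr7:131185021-131242976 on the minus strand of GRCh37) is a sialomucin whose negative charge keeps cells apart. PODXL stood at 116, 68.5, 64.3 and 48.4 CPM in NSP replicates 1 to 4 and at 24.9, 12.7, 16.5 and 15.4 CPM in SP replicates 1 to 4, a ratio of 4.28. STAB1 (stabilin-1, chr3:52529354-52558511, plus strand) is a scavenger receptor known from macrophages and sinusoidal endothelium. STAB1 had 97.1, 81.5, 60.6 and 83.3 CPM in NSP and 24.9, 25.4, 26.5 and 32.1 CPM in SP. The SP libraries of STAB1 lay close together (27.2 ± 3.33 CPM, SD, n = 4) and its NSP libraries were more spread (80.6 ± 15.1 CPM, SD, n = 4). MGLL (chr3:127407905-127771033, minus strand) encodes monoacylglycerol lipase, which hydrolyses the endocannabinoid 2-arachidonoylglycerol. MGLL had 94.6, 98.9, 72.7 and 63.1 CPM in NSP and 31.1, 22.7, 30.6 and 16.1 CPM in SP, a ratio of 3.28. NECAB1 encodes a calcium-binding protein known from neurons. NECAB1 varied little within NSP, at 74.4, 61.2, 69.7 and 65.8 CPM, and had 17.3, 30.1, 25.3 and 23.7 CPM in SP.

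Promoters of the set were searched because its genes lie on many chromosomes and were all higher in NSP by the rule. The RefSeq promoter table (GRCh38.p14, 250 bases before to 50 after the start) held 31 of the 50 genes. The AP-1 motif TGANTCA, which reads the same on both strands apart from its middle base, was in 4 of the 31 (12.9%), against 4.34% of the promoters of the 5620 matched genes with at least 100 counts and 7.76% of all 27305 promoters. The TEAD motif GGAATG on either strand was also in 4 (STAB1, FLNC, FUT8 and KPNA2, 12.9%, against 10.7% and 14.0%). The forkhead motif GTAAACA was in none of the 31, against 2.17% and 3.41%, which says only that these letters are not in the windows. The letters TATAAA were in 6 (19.4%, against 5.44% and 12.0%), and the GC box GGGCGG was in 24 (77.4%, against 73.5% and 44.6%). With 31 promoters each count is small, and a match is not a bound site. Below are the promoters with an AP-1 match, in RefSeq GRCh38.p14 on the strand of the gene from 5′ to 3′, and that of STAB1, with matches of TGANTCA and GGAATG (or its complement CATTCC) in capitals. LYPD1 lies at chr2:132671477-132671776 (minus), AMIGO2 at chr12:47079902-47080201 (minus), POSTN at chr13:37598719-37599018 (minus), FUT8 at chr14:65410342-65410641 (plus) and STAB1 at chr3:52495088-52495387 (plus).
LYPD1: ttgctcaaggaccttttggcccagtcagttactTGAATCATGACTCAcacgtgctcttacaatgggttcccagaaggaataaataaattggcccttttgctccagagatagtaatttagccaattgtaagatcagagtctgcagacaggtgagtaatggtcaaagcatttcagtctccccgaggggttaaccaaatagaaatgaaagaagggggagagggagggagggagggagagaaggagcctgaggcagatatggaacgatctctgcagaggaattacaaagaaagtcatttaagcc
AMIGO2: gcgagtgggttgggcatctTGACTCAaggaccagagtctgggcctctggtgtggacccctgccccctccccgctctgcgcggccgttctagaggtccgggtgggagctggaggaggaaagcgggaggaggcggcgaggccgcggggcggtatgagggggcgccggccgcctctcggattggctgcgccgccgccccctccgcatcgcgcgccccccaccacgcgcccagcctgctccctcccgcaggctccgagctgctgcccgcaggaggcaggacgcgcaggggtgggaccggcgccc
POSTN: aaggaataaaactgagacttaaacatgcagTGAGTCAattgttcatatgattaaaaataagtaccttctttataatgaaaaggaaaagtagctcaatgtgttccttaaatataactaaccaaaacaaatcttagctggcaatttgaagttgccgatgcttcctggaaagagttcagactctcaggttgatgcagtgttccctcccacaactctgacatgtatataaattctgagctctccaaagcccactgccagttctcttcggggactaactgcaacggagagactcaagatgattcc
FUT8: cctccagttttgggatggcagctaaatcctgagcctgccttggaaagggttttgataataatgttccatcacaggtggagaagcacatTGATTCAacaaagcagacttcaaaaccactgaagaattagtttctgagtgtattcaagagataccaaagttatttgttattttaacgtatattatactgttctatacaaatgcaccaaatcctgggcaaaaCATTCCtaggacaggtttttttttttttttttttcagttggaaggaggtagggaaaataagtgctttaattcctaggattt
STAB1: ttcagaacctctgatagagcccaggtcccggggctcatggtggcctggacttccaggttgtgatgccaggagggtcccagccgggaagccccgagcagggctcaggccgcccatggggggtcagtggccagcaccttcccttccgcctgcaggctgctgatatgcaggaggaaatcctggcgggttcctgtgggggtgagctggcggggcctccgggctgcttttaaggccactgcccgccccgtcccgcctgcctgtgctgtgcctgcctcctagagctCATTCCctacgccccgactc
In LYPD1 a pair of AP-1 matches stood side by side, the first at position -217 from the start, and the match started at -231 in AMIGO2, at -220 in POSTN and at -162 in FUT8. The STAB1 match lies at 30 bases after the start. Of these 5 genes, POSTN, LYPD1 and AMIGO2 are among the 10 with the largest ratios, and FUT8 had a ratio of 2.33. Of the other genes among those 10, MISP, TNC, TMEM158 and KRT34 had no AP-1 match. PODXL, MGLL and RTN4RL2 were not among the 31 promoters. The rule chose the genes on this ratio, and whether a match goes with it was not tested.

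In the matrix group, 5 of the 50 genes stood together. TNC (tenascin-C, a glycoprotein that loosens adhesion) had 14.7, 16.4, 16.97 and 7.39 CPM in NSP and 4.84, 4.01, 2.36 and 1.40 CPM in SP. Its SP levels came from 2 to 7 counts per library, so the ratio of 4.40 is imprecise. POSTN (periostin, which binds integrins and crosslinks collagen) had 33.4, 36.7, 27.3 and 28.2 CPM in NSP and 10.4, 10.0, 7.66 and 11.2 CPM in SP. FN1 (fibronectin, the main adhesive glycoprotein of the matrix) had 81.97, 83.9, 104 and 98.1 CPM in NSP and 38.7, 36.8, 38.3 and 45.4 CPM in SP. Relative to its mean, fibronectin varied least of these 5 genes, with group means of 91.9 ± 10.6 and 39.8 ± 3.82 CPM (SD, n = 4 each). COL7A1, the collagen of anchoring fibrils, averaged 28.8 ± 11.4 CPM in NSP and 11.8 ± 3.97 CPM in SP (SD, n = 4 each), and TINAGL1, a matricellular glycoprotein, 30.3 ± 12.1 and 10.4 ± 3.04 CPM.

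Of the listed matrix glycoprotein and collagen genes, 33 were tested by edgeR and 10 were called higher in NSP (2.03% over all genes tested). Of the 10, FBLN1, LAMC1, AGRN, COL4A2 and COL6A1 were outside the set. COL4A2, a basement membrane collagen, averaged 295 ± 32.4 CPM in NSP and 166 ± 27.7 CPM in SP (SD, n = 4 each), with a log2 fold change of 0.87 ± 0.17 (SE) and an adjusted p of 0.0099 by edgeR's quasi-likelihood test. COL1A2, a chain of fibrillar collagen I, went the other way, with 18.4 ± 14 CPM in NSP and 82.5 ± 28.7 CPM in SP (log2 fold change -2.09 ± 0.40 SE, adjusted p 0.0085, edgeR). Of the 33 tested matrix genes, 24 had a log2 fold change above 0. COL1A2 was the 1 gene called lower (1.63% over all genes tested). The list of proteases and their inhibitors had 3 genes in the set. PCSK7, a proprotein convertase of the secretory pathway, had 209, 258, 324 and 186 CPM in NSP and 58.7, 89.6, 122 and 62.2 CPM in SP, and replicate 3 was the highest of each group. TIMP3, the matrix-bound metalloproteinase inhibitor, averaged 110 ± 17.9 CPM in NSP and 52.0 ± 16.5 CPM in SP (SD, n = 4 each). PLAT, the tissue plasminogen activator, had 9.09 to 13.7 CPM in NSP and 2.95 to 9.08 CPM in SP, so that its groups all but touched.

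At the cell surface, PODXL was joined by AMIGO2, CDCP1, NRP1 and CD44. CD44, the hyaluronan receptor, had 134, 115, 87.9 and 92.0 CPM in NSP and 29.7, 49.5, 67.2 and 33.5 CPM in SP. SP replicate 3 was the SP library nearest to NSP for CD44. CDCP1, a transmembrane substrate of Src kinases, had 43.5, 41.0, 12.7 and 27.5 CPM in NSP and 11.7, 11.4, 11.2 and 5.59 CPM in SP. NSP replicate 3 of CDCP1 was only just above the SP libraries. AMIGO2, an adhesion molecule with leucine-rich repeats, had 33.4, 51.6, 21.2 and 26.9 CPM in NSP and 10.4, 13.4, 7.66 and 9.08 CPM in SP. NRP1 (neuropilin-1, co-receptor for semaphorins and VEGF) had 13.9 to 25.6 CPM in NSP and 2.79 to 12.7 CPM in SP. PLXND1, a plexin that also answers semaphorins, averaged 22.2 ± 8.45 CPM in NSP and 9.51 ± 3.33 CPM in SP (SD, n = 4 each). Of 30 listed surface genes tested, 10 were called higher in NSP by edgeR (2.03% over all genes tested). The 10 include PODXL, AMIGO2, CDCP1, NRP1 and CD44, which the rule chose on the same contrast. SDC1, BCAM, DCBLD2, TPBG and FXYD5 were called and are outside the set.

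None of the integrin subunits, the receptors for the matrix proteins above, entered the set. Of the 10 tested, 3 were called higher in NSP by edgeR (2.03% over all genes tested). ITGA3, a subunit of a laminin receptor, averaged 953 ± 209 CPM in NSP and 604 ± 110 CPM in SP (SD, n = 4 each), a difference of 0.71 ± 0.18 (SE) on the log2 scale with an adjusted p of 0.0369 by edgeR. ITGA5, the subunit that pairs in the fibronectin receptor, had a larger ratio of 2.66, but its libraries overlapped. ITGB5 averaged 282 ± 40.1 and 180 ± 29.9 CPM. ITGA3 and ITGB5 were separated with ratios of 1.58 and 1.57, under the 2 of the rule.

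Receptors and signalling molecules made up another group. FGFR1, a receptor tyrosine kinase for fibroblast growth factors (chr8:38257733-38326352, minus strand, GRCh37), had 111, 77.2, 65.5 and 51.0 CPM in NSP and 40.1, 32.1, 31.2 and 21.0 CPM in SP. PTPRF, a receptor phosphatase at adhesion sites, averaged 104 ± 19.7 CPM in NSP and 51.9 ± 13 CPM in SP (SD, n = 4 each). MDK (midkine, a heparin-binding growth factor) had nearly the same level in all SP libraries, 41.7 ± 1.3 CPM (SD, n = 4), and 70.5 to 135 CPM in NSP. LYPD1, a membrane-anchored protein of the LY6 family, had 33.4, 79.6, 47.3 and 40.3 CPM in NSP and 13.8, 24.1, 11.8 and 10.5 CPM in SP. Replicate 2 was the highest of each group for LYPD1. TMEM158, a membrane protein first found as induced by RAS, had 158, 87.3, 47.3 and 65.8 CPM in NSP and 32.5, 23.4, 30.05 and 22.3 CPM in SP. TGM2, the protein-crosslinking transglutaminase 2, had 120, 71.4, 82.4 and 129 CPM in NSP and 49.0, 34.8, 35.4 and 58.0 CPM in SP. RTN4RL2, a relative of the Nogo receptor, had between 1 and 11 counts in an SP library, the widest relative spread in SP (0.669 to 7.68 CPM).

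Keratin and desmosome genes were represented by KRT7, KRT80, KRT34 and DSP. KRT7, a keratin of simple and transitional epithelium and the gene of the set with the most counts, had 731, 626, 707 and 471 CPM in NSP and 250, 246, 400 and 147 CPM in SP. Replicate 4 was the lowest of each group for KRT7. KRT34, a hair keratin, had 22.3, 10.6, 6.67 and 12.8 CPM in NSP and 6.22, 2.68, 4.12 and 2.79 CPM in SP. Replicate 1 was the highest of each group for KRT34. DSP (desmoplakin, which ties keratin to desmosomes) had 39.0, 24.6, 25.5 and 45.7 CPM in NSP and 18.7, 3.34, 10.0 and 17.5 CPM in SP. KRT80 averaged 49.5 ± 13.2 CPM in NSP and 23.1 ± 5.87 CPM in SP (SD, n = 4 each). These 4 were the ones edgeR called among the 16 listed genes of this kind that were tested (2.03% higher in NSP over all genes tested). The median log2 fold change of the 16 was 0.11. Among the others, DSG2, PKP3, PPL, JUP, DSC3 and PKP2 averaged lower in NSP than in SP (ratios of 0.633 to 0.885), and PKP4 had a ratio of 1.04. KRT8, KRT18 and KRT19 had ratios of 1.17, 1.03 and 1.13.

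Actin-binding and contractile genes followed. MISP, which bundles actin and positions the mitotic spindle, had 11.1, 17.8, 12.1 and 8.73 CPM in NSP and 4.14, 2.01, 1.77 and 2.10 CPM in SP. Its SP libraries held 3 to 6 counts each. FSCN1 (fascin, the actin bundler of filopodia) averaged 22.8 ± 5.11 CPM in NSP and 7.73 ± 2.69 CPM in SP (SD, n = 4 each). FLNC (filamin C, an actin crosslinker known from muscle) had 88.0, 46.8, 46.7 and 36.9 CPM in NSP and 18.7, 24.1, 33.6 and 11.9 CPM in SP. TNNT1, the troponin T of slow skeletal muscle, averaged 104 ± 16.4 and 49.8 ± 6.33 CPM (SD, n = 4 each). CAV1, the coat protein of caveolae, had 84.0, 85.8, 72.7 and 68.5 CPM in NSP and 28.3, 34.8, 58.9 and 27.2 CPM in SP. Outside the set, MYL9, COTL1 and PDLIM7 of this list and CMTM6 and CMTM7 of the caveola and raft list were called higher in NSP by edgeR.

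Among listed chromatin and cell cycle genes, 6 of the 15 tested were called higher in NSP by edgeR (2.03% over all genes tested). Of the 6, 5 are in the set. HMGA1 had 595, 365, 215 and 273 CPM in NSP and 204, 164, 154 and 143 CPM in SP, so that NSP replicate 1 stood well above the rest. TOP2A (topoisomerase II alpha) had 33.4, 34.2, 47.3 and 54.4 CPM in NSP and 17.3, 11.4, 33.0 and 11.2 CPM in SP. UBE2C, the E2 enzyme of the anaphase-promoting complex, had 71.8, 68.0, 70.3 and 60.4 CPM in NSP and 33.2, 16.1, 53.0 and 18.2 CPM in SP. KPNA2, an importin alpha that peaks late in the cell cycle, had 46.1 to 55.7 CPM in NSP and 14.0 to 37.1 CPM in SP. ESPL1, which is outside this list and was not called, had 9.61 to 13.3 CPM in NSP and 2.68 to 8.25 CPM in SP. In each of these 4 mitotic genes SP replicate 3 was the highest SP library. The same held for 43.3% of the genes outside the set with at least 100 counts. For TOP2A, SP replicate 3 came within 1.01 times of the lowest NSP library.

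The remaining genes of the set have varied roles. HCN2, a pacemaker channel, had 40.0, 26.0, 19.4 and 26.2 CPM in NSP and 11.1, 8.03, 4.12 and 16.8 CPM in SP. SLC25A26, the mitochondrial carrier of S-adenosylmethionine, averaged 85.6 ± 8.24 and 35.4 ± 13.7 CPM (SD, n = 4 each). FLI1, an ETS transcription factor, had 9.402 to 18.2 CPM in NSP and 2.79 to 6.69 CPM in SP, and NFE2L3, a CNC family transcription factor, 9.09 to 14.0 and 3.34 to 5.59 CPM. BRF2, an initiation factor of RNA polymerase III, had 6.72 to 17.7 CPM in NSP and 2.07 to 5.35 CPM in SP. FUT8, the enzyme of core fucosylation, averaged 23.9 ± 5.76 and 10.3 ± 1.67 CPM (SD, n = 4 each). UNC13D, which primes granules for release, had 35.6 to 45.8 CPM in NSP and 17.3 to 26.1 CPM in SP. GRIP2, a PDZ scaffold of glutamate receptors, had 20.2 to 30.9 and 11.9 to 15.4 CPM, and NNAT, an imprinted gene known from brain, 8.199 to 13.3 and 2.95 to 6.29 CPM. PCED1B and NT5DC2, whose roles are less well known, averaged 54.2 ± 19 and 38.7 ± 11.9 CPM in NSP and 21.7 ± 8.82 and 16.8 ± 2.45 CPM in SP (SD, n = 4 each).

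Over the 17 family lists, which hold 39 of the 50 genes, 261 genes were tested by edgeR. It called 68 higher in NSP, of which 38 are in the set, and 4 lower (COL1A2, PDGFRB, SMAD3 and IGFBP5). Over all genes tested, 1.63% were called lower. Of the 222 tested list genes outside the set, 30 were called higher (13.5%, against 2.03% of all genes tested), and 17 of the 30 had no overlap between NSP and SP. The lists were written with earlier results of these data known, so this share is a description. With the replicate number as a block, 105 list genes were called higher and 15 lower, and 7% of all genes tested were called higher. The share of all genes called lower with the block was not computed. The count of 68 was 34 without NSP replicate 2, 38 without SP replicate 2 and 42 without NSP replicate 1. IGFBP5, a binding protein for insulin-like growth factors, fell by 1.16 ± 0.20 (SE) on the log2 scale, from 3148 ± 496 CPM in SP to 1375 ± 344 CPM in NSP (SD, n = 4 each, adjusted p 0.00469 by edgeR), while IGFBP4 averaged 170 ± 54.4 CPM in NSP and 91.0 ± 28 CPM in SP and was called higher. Further list genes called higher were CTSF, SCARA3, LIPA, ATP2A1, SLC12A8, SLC15A3, TGFB2, CLU, NPPB, C1QTNF9B and MXD3. Of the neutral lipid hydrolases around MGLL, 9 were tested and LIPA, the lysosomal acid lipase, was the other call. The median of their 9 log2 fold changes was -0.15. Of the scavenger receptors around STAB1, 8 were tested and SCARA3 was the other call. Of the neuronal calcium-binding genes, 7 were tested and NECAB1 was the call.

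**Figure D3:**
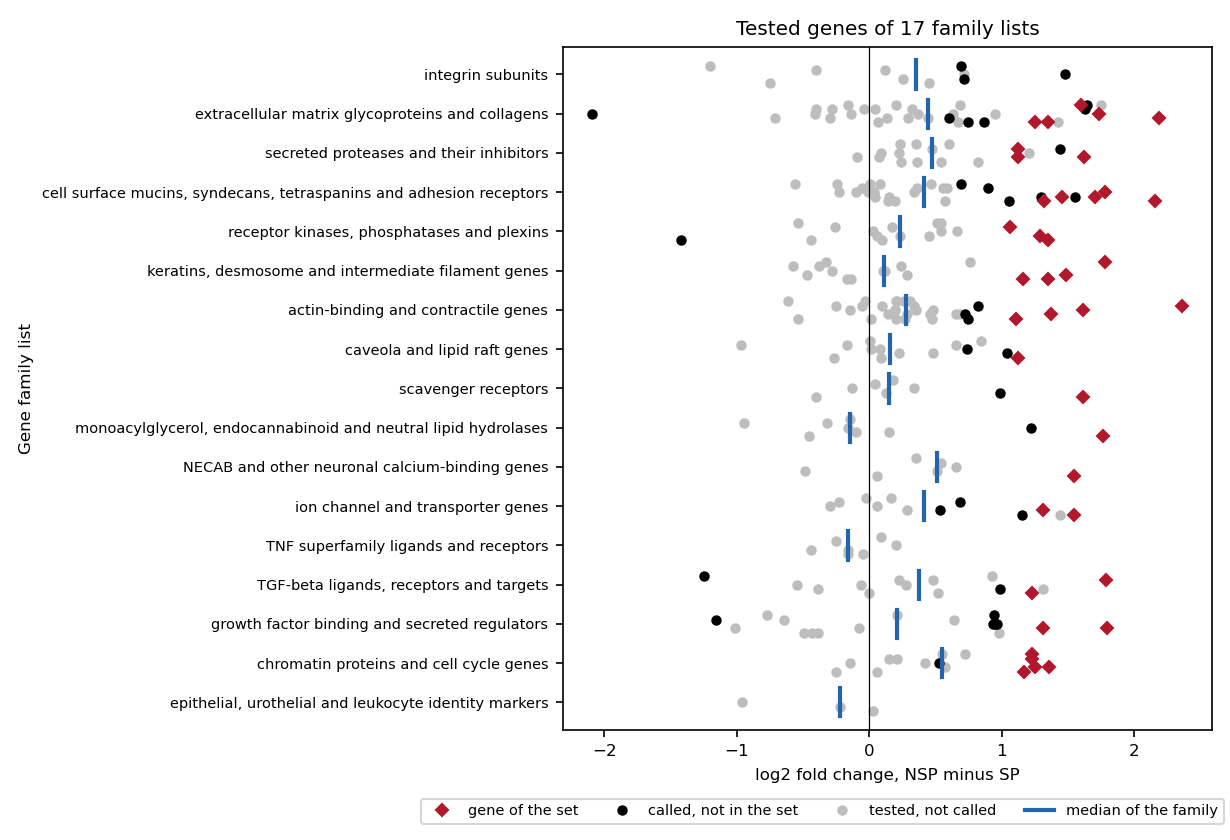
Log2 fold change (NSP minus SP, edgeR fit) of the tested genes of the 17 family lists on the horizontal axis, with red diamonds for genes of the set, black points for other called genes, grey points for genes not called and a blue bar for the median of each list. All diamonds lie between 1.06 and 2.37, and the 4 black points left of 0 are COL1A2, PDGFRB, SMAD3 and IGFBP5.

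The separation between groups did not come with equal levels inside a group. The median ratio of the highest to the lowest library was 1.82 in NSP and 2.12 in SP for the 50 genes, against 1.56 and 1.62 for 2735 other genes with counts in the middle range of the set. The highest NSP library was replicate 1 for 23 genes and replicate 2 for 16, together 78% of the set, against 50.9% of the other genes with at least 100 counts. PODXL, TMEM158, HMGA1, FLNC and FGFR1 were among the 23. Replicate 3 was the highest NSP library for TNC, PCSK7, ESPL1, NNAT and FN1, and replicate 4 for DSP, SLC25A26, TOP2A, TGM2, KPNA2 and TIMP3. NSP replicates 1 and 2 have the largest totals, and the part of depth in this pattern was not tested. In SP, replicate 3 was the highest library for 12 genes (24%), against 43.3% of the other genes. The rule chose the genes on these same CPM values, so the spreads and shares above describe the set. The 2735 genes were matched on total counts alone, and the part of the rule in these differences was not tested. Without NSP replicate 1 the rule picked 43 genes, 33 of them from the set, and without NSP replicate 2 it picked 45, 38 of them from the set.

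**Figure D4:**
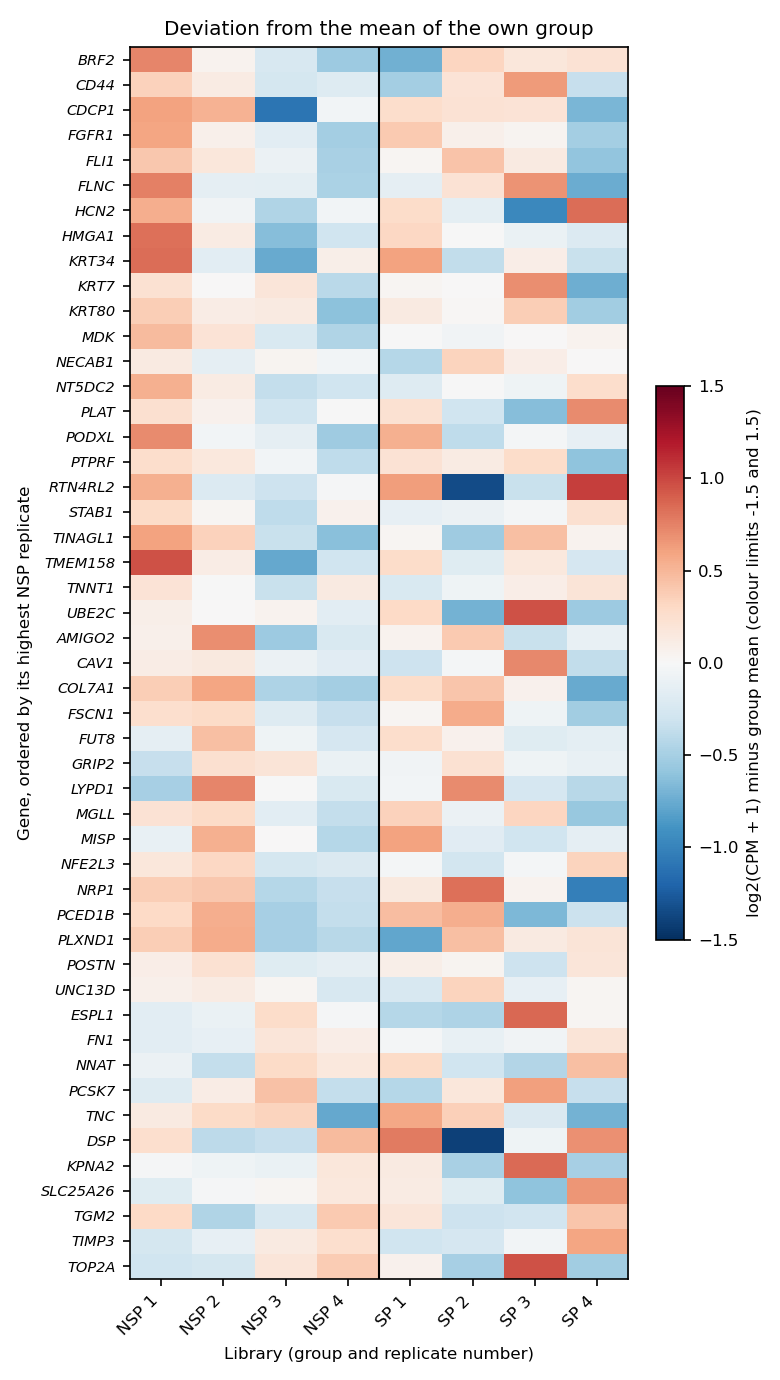
Deviation of log2(CPM + 1) from the mean of the own group for 49 of the 50 genes, by library, in colour from blue (below the mean) to red (above), with the NSP libraries left and the SP libraries right of the line and genes ordered by their highest NSP replicate. Over all 50 genes, NSP replicates 1 and 2 were above the NSP mean for 38 and 34, and NSP replicates 3 and 4 for 15 and 12.

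Same-numbered SP and NSP libraries were also compared within the set. Across the 50 genes, the correlation of the deviations was 0.186, 0.632, 0.269 and 0.512 for the numbers 1 to 4. In the other 12 combinations it ran from -0.503 to 0.0537. Genes are not independent replicates, and deviations within a group sum to 0, so these values are a description. The highest SP and the highest NSP library carried the same number in 20 of the 50 genes (40%), LYPD1, KRT34 and TGM2 among them, against 34.9% of the other genes with at least 100 counts, and they differed in the remaining genes, such as KRT7, CD44, STAB1, FN1 and MDK. With the replicate block all 50 genes were called higher in NSP by edgeR.

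By position, the 50 genes lay on 16 chromosomes. Chromosome 3 held the most, 9 of its 401 genes with at least 100 counts (2.24%), followed by chromosomes 7, 11 and 12 with 5 each. There were 8 pairs of genes of the set within 1 Mb of each other, and 2 of them shared exon bases. AMIGO2 (chr12:47469490-47473742, minus) and PCED1B (chr12:47473386-47630445, plus) start head to head and share 123 bases of exon on opposite strands. Both had replicate 2 as the highest NSP and the highest SP library. STAB1 (plus) and NT5DC2 (chr3:52558401-52569070, minus) meet at their 3′ ends and share 111 bases of exon. KRT80 (chr12:52562780-52585798, minus) and KRT7 (chr12:52626304-52645970, plus) lie 40.5 kb apart on opposite strands, and CDCP1 (chr3:45123769-45187914) and TMEM158 (chr3:45265958-45267779) 78.0 kb apart, both on the minus strand, with no other gene of at least 100 counts between. The other pairs were HCN2 and MISP (134 kb), BRF2 and FGFR1 (550 kb), NNAT and TGM2 (604 kb) and TOP2A and KRT34 (960 kb). Between these lay 3, 7, 2 and 4 genes of at least 100 counts, and none of them had all NSP libraries above all SP libraries. IGFBP4, between TOP2A and KRT34, had a ratio of 1.87 and was called higher in NSP by edgeR, the only call among these genes.

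In 24 of the 50 genes (48%) an exon crossed an exon of a counted gene on the other strand, against 49.3% of the 6860 genes and 32.6% of the 92 genes picked by the mirrored rule. The overlap was at least 50 bases in 23 of the 24. The 24 genes made 30 pairs. Of the partners, 4 were in the set themselves and 26 were not, namely 12 long noncoding RNAs (lncRNAs), 12 protein-coding genes and 2 pseudogenes. Counts were found for 21 of the 26, and 5 were listed at 0 (DELEC1, DSP-AS1, CD44-DT, CHRM4 and ENSG00000245008).

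Of the 26 partners outside the set, 17 were tested and 7 were called higher in NSP by edgeR (41.2%, against 2.64% of all tested genes with such a crossing exon). None was called lower (1.47% over the same genes), none was lower at an unadjusted p under 0.05, and DESeq2 called 0 lower. By kind of gene, those called higher were 5 of 6 lncRNAs (5.05% over all tested lncRNAs with a crossing exon), both pseudogenes and 0 of 9 protein-coding partners (1.6% over all such genes). Among the 9, 1 was higher at an unadjusted p under 0.05, and DESeq2 called 0. Whether the kinds differ was not tested. The partners were found by position, but they share exon bases with genes chosen on the same contrast. The shares in brackets are over all such genes, not over partners of genes chosen this way, so these counts are a description. The lncRNA log2 fold changes lay between 1.42 and 1.58, and the protein-coding ones between -0.18 and 0.69. With at least 10 counts required in every library 4 partners were called, and with the replicate block 8 (7% of all genes tested). No share over all genes was computed for pseudogenes or for the minimum of 10 counts.

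KRT7-AS (chr12:52638832-52641232) lies across 282 bases of KRT7 exon. KRT7-AS had 3346, 2983, 3803 and 2209 CPM in NSP and 1090.1, 1183, 1424 and 633 CPM in SP, with 29032 counts in all against 6229 for KRT7. Per kb of exon this was 17148 counts for the lncRNA and 1558 for the keratin gene. Which of the pair the reads came from cannot be told apart. The log2 fold change listed under KRT7-AS was 1.58 ± 0.22 (SE) with an adjusted p of 0.000948 by edgeR, and replicate 4 was the lowest of each group, as in KRT7. CD44-AS1 (chr11:35231890-35236532), which shares 84 bases with CD44 exons, had 442, 458, 353 and 271 CPM in NSP and 164, 167, 150.2 and 99.9 CPM in SP. CD44-AS1 had 6293 counts per kb and CD44 106, with a log2 fold change of 1.44 ± 0.20 (SE, adjusted p 0.000863, edgeR) for the lncRNA. ENSG00000238258, across 561 bases of NRP1 exon, had 182, 188, 139 and 79.9 CPM in NSP and 42.8, 88.3, 54.2 and 28.6 CPM in SP. Its groups overlapped, since SP replicate 2 lay above NSP replicate 4, and it was called with an adjusted p of 0.00922 by edgeR. It had 1825 counts per kb, against 16.8 for NRP1.

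ENSG00000255201 opposite FGFR1 had 90.6, 63.2, 51.5 and 54.4 CPM in NSP and 27.6, 24.7, 24.7 and 23.0 CPM in SP, with a log2 fold change of 1.43 ± 0.21 (SE, adjusted p 0.00187, edgeR). FLNC-AS1 opposite FLNC (1.496 ± 0.34, adjusted p 0.0218, edgeR) and the pseudogenes KRT87P opposite KRT7 (1.88 ± 0.31, 0.00337) and ENSG00000267036 opposite HCN2 (1.72 ± 0.42, 0.0309) completed the 7. Pseudogenes share sequence with their parent genes, so their counts may be split among copies. ENSG00000255301 opposite RTN4RL2 had 136, 65.6, 47.9 and 109 CPM in NSP and 43.5, 10.7, 17.1 and 66.3 CPM in SP. Its libraries overlapped between groups and it was not called (adjusted p 0.0902, edgeR). With the replicate block it was called higher (adjusted p 6.15e-12, edgeR), and so were 7% of all genes tested. The test pools variance over genes, and the block leaves few degrees of freedom per gene. That p-value therefore does not measure the spread of this gene's libraries alone. Replicates 1 and 4 of RTN4RL2 were likewise the highest of each group. All 6 tested lncRNA partners had more counts per kb than the gene of the set that they cross. Whether the values of these pairs are swapped between strands was not tested.

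None of the 9 tested protein-coding partners outside the set was called, and those with the most counts follow. HNRNPA2B1, a splicing factor with 1207 bases across NFE2L3, averaged 102 ± 14.3 CPM in NSP and 102 ± 22.2 CPM in SP (SD, n = 4 each), with a log2 fold change of 0.06 ± 0.17 (SE). ADGRA2 crosses BRF2 over 1629 bases and had a log2 fold change of 0.02 ± 0.16 (SE), and GPR39 crosses LYPD1 over 1180 bases with 0.20 ± 0.36 (SE). The sign of these 3 changed under other settings. UQCC5 opposite NT5DC2 had 0.36 ± 0.20 and LRIG1 opposite SLC25A26 0.34 ± 0.20 (SE). TAGLN, an actin-binding smooth muscle gene whose exons cross 2233 bases of PCSK7, had 9.65 to 15.7 CPM in NSP and 5.53 to 9.08 CPM in SP without overlap, but was not called (0.69 ± 0.30 SE, adjusted p 0.262, edgeR). Counts per kb were higher on the partner in 13 of the 26 pairs with a gene outside the set. The 26 genes without a crossing exon include MISP, PODXL, TMEM158, MGLL, POSTN, HMGA1 and FN1.

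**Figure D5:**
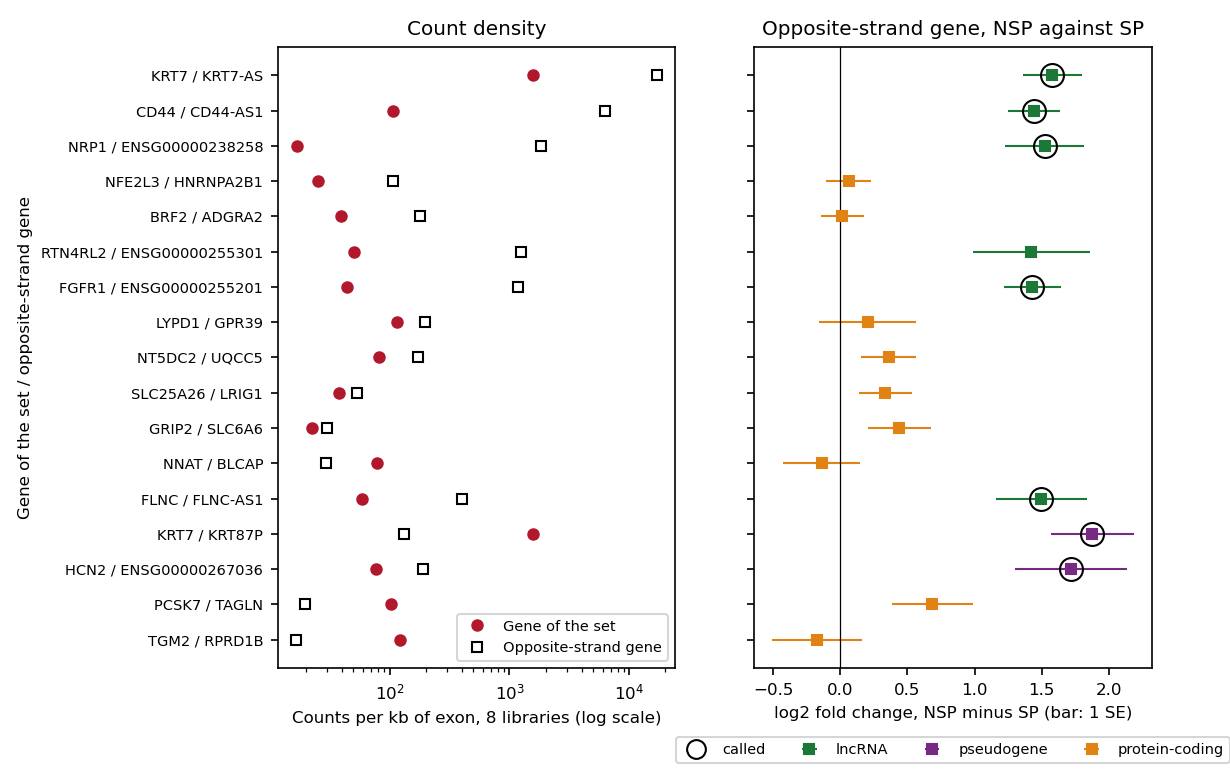
Left, counts per kb of exon over the 8 libraries (log axis) for the gene of the set (red circles) and its opposite-strand partner (open squares), for the 17 partners tested. Right, the edgeR log2 fold change (NSP minus SP) of the partner with a bar of 1 SE, coloured by kind of gene, with a ring around the 7 called. The ringed lncRNAs and pseudogenes lie between 1.43 and 1.88, and the protein-coding partners at or under 0.69.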

How the data were processed

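RNA-seq of SP and NSP cells of J82 (4 libraries each) was used. The authors made KAPA mRNA HyperPrep libraries, aligned the single-end reads of 50 bp with STAR to hg19, and used featureCounts of Subread on gencode version 19 genes. The deposited values are raw counts per gene, without normalization. The strand setting and the handling of reads that match several genes are not given in the sources used here. Column names gave the group and number of each library.

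CPM was the count divided by the library total. The count test was edgeR 4.0.16 in R 4.3.3 (TMM, filterByExpr at its minimums of 10 for the count and 15 for the total, glmQLFit, glmQLFTest, no covariate), a step first tested on simulated data, and called at a Benjamini-Hochberg adjusted p under 0.05 and a fold change over 1.3, the cutoff the study used with DESeq2. The standard error is the log2 fold change divided by the root of the F statistic. Symbols, gene types, positions and crossing exons came from GENCODE 44 mapped to GRCh37, the build of hg19, which held 55538 of the identifiers (96.1%). Promoters came from RefSeq (GRCh38.p14), and motifs were searched on both strands. Tables and plots were made in Python 3.11.15 with pandas 2.3.3 and matplotlib 3.10.9.

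The genes of the set and the family lists were chosen with earlier results of these data known. Genes named are the 4 that named the set, the 15 with the largest ratio, the 10 with the most counts, those in a family list, 3 on each side of each threshold, the 10 opposite-strand partners with the most counts, and called list genes outside the set. The other genes of the set, the remaining partners and the marker genes are named to account for them. The values of 1 gene of the set are not reported here, and the counts include it.

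Over the genes tested, SP and NSP libraries of the same number deviated together from their group means (correlations of 0.383, 0.205, 0.323 and 0.323 for 1 to 4, and -0.279 to 0.126 for other combinations). The numbers were therefore read as pairs, but the main test and its p-values left the pairing out. A replicate block was an alternative, and it called all 50 genes. It called 7% of all genes tested higher in NSP, against 2.03% in the main test. Replicates differed by more than sampling noise (chi-square per degree of freedom 4.87 to 11), so each counted as 1 sample. The alternatives were DESeq2 1.42.0, its size factors and upper-quartile normalization within edgeR, no filter, at least 10 counts in every library, and each library left out in turn. For the rule they were TMM or DESeq2 scaling, other minimums of counts and ratio, and each library left out. No other libraries of the study were analysed here.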

Additional observations from a re-analysis of the deposited data

Results flagged for a closer look

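In 4 of 120 groups of 4 libraries checked, over the 50 genes and the 10 opposite-strand partners with the most counts, a library lay far from the other 3 for the range of the group, where about 6 would be expected by chance at 1 in 20. The gap divided by the range was 0.862 for MISP in SP, where replicate 1 had 4.14 CPM and the others 1.77 to 2.10 CPM, and these levels rest on 3 to 6 counts. It was 0.911 for CDCP1 in SP, where replicate 4 had 5.59 CPM and the others 11.2 to 11.7 CPM. It was 0.84 for GRIP2 in SP, where replicate 2 had 15.4 CPM and the others 11.9 to 12.4 CPM. For LRIG1 in NSP, the gene opposite SLC25A26, it was 0.89, where replicate 1 had 25.8 CPM and the others 32.1 to 32.9 CPM. The cause was not tested.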

How the results depend on the processing

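The rule picked 79 genes at a minimum of 50 counts, 122 at a ratio of 1.5 and 11 at a ratio of 3. With CPM from TMM library sizes it picked 55 genes, 49 of them from the set, and with DESeq2 size factors 60, all 50 among them. With 1 library left out it picked 43 to 71 genes. Leaving out 1 library gave 31 to 44 called genes of the set, 34 to 62 list genes called higher, 3 to 6 called lower and 5 to 7 partners called higher. At least 10 counts in every library left 4 partners called higher. With the replicate block, 105 list genes were called higher and 15 lower, and without a filter 10 were called lower. Among the log2 fold changes of single genes of the set under the alternatives, 60 lost the call, 9 gained it, 612 did neither and none changed sign. Log2 fold changes near 0 changed sign in 3 partners. With 1 library left out HNRNPA2B1 ran from -0.020 to 0.16 (below 0 without SP replicate 4 or NSP replicate 3), ADGRA2 from -0.066 to 0.126 (below 0 without NSP replicate 3, SP replicate 2 or SP replicate 3) and GPR39 from -0.056 to 0.75 (below 0 without NSP replicate 3, SP replicate 1 or SP replicate 2), and ADGRA2 was -0.0024 with upper-quartile normalization. The cause was not tested. Of the 50 genes, 11 had under 200 counts, and intervals from counts would cover counting error only.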
